A study of Mus musculus with 15 samples.

Results

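Voltage-gated sodium channels and their intracellular fibroblast growth factor partners were followed in mouse cerebellum through 9 genes: the pore-forming alpha subunits Scn1a, Scn3a and Scn8a, the beta subunits Scn2b, Scn3b and Scn4b, and Fgf12, Fgf13 and Fgf14. They were taken by symbol from a count table of 24420 genes, and all 9 were present and passed the low-count filter. Cerebellar RNA was sequenced from 3 groups of 5 libraries: wild type mice on FVB/nJ at 9 weeks (WT), mice with an Atxn1[82Q] allele on FVB/nJ at 9 weeks (82Q), and mice with Atxn1[82Q] plus CalphaLoxM120A, an altered catalytic subunit of protein kinase A, on a mixed C57BL/6J:FVB/nJ background at 8 weeks (82Q_M120A). Expanded Atxn1 is the cause of spinocerebellar ataxia type 1, a disease of Purkinje cells among others, and the study's title asks about phosphorylation of ATXN1 by protein kinase A in those cells. The design text calls the 82Q allele a knockin, the labels name no promoter or Cre driver for either allele, no group carries the kinase allele alone, and in comparisons with 82Q_M120A genotype, strain and age cannot be told apart. Nothing says that all 5 samples of a group came from separate animals, though each group held libraries with and without Y-linked transcripts and so more than 1 animal; p-values cover the spread among the sequenced samples.

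Sodium channels open on depolarization and carry the upstroke of the action potential. An alpha subunit forms the pore, and beta subunits, which are immunoglobulin-like membrane proteins, alter gating and bind the channel to adhesion molecules and the cytoskeleton. The intracellular fibroblast growth factors are not secreted. They bind the tail of the alpha subunit and set channel inactivation and placement at the axon initial segment. Purkinje cells fire spontaneously at high rates and depend on resurgent sodium current, in which the channel reopens on repolarization; Scn8a carries much of it and the tail of the Scn4b protein can act as its open-channel blocker. Loss of Fgf14 function causes an inherited ataxia in people.

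Libraries held 38.3 M to 99.4 M assigned counts (M, mega), and values below are TMM-scaled counts per mega counts of library (CPM) unless said otherwise. A gene was called when edgeR's quasi-likelihood test gave a Benjamini-Hochberg adjusted p under 0.05 over 16808 tested genes, and a standard error (SE) is approximate, from the test statistic. Of 10 Purkinje cell markers, all 10 fell in 82Q and all 10 in 82Q_M120A against WT, and their summed level was 9738 to 11080 CPM in WT, 3429 to 4289 in 82Q and 3468 to 4827 in 82Q_M120A. In 82Q against WT the falls of these markers ran from 1.52-fold for Skor2 to 4.89-fold for Gng13. Fewer Purkinje cells and less RNA of these genes per Purkinje cell cannot be told apart in these whole-tissue libraries. Libraries also differed in choroid plexus markers (summed level 27.5 to 2575 CPM in WT, 30.5 to 2768 in 82Q, 14.3 to 2037 in 82Q_M120A). The median of this level was 2226 CPM for WT libraries, 292 for 82Q and 23.0 for 82Q_M120A. Among WT libraries only WT-4 was low, and among 82Q_M120A libraries only 82Q_M120A-1 was high. The choroid plexus level thus went partly with group, and a fit with it as a term cannot fully separate them. Y-linked transcripts differed too and passed 100 CPM in 1 WT, 3 82Q and 2 82Q_M120A libraries. Atxn1 was called in no comparison (adjusted p = 0.308, 0.764 and 0.467 for 82Q against WT, 82Q_M120A against WT and 82Q_M120A against 82Q). Prkaca, which encodes the kinase subunit, had a mean of 168 ± 3.6 CPM for WT, 164 ± 5.76 for 82Q and 145 ± 5.54 for 82Q_M120A (SD, n = 5) and fell in 82Q_M120A against 82Q (-0.18 ± 0.03, adjusted p = 0.000633).

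Per length, the member with the highest level in WT was Scn2b and that with the lowest was Scn3a. CPM were divided by the summed exon length in GENCODE M21, since the sources used here do not give the annotation behind the counts. Scn2b, a beta subunit that is disulfide-linked to the pore, stood at 91.2 ± 3.88 CPM per kb in WT (SD, n = 5). Scn1a followed at 28.0 ± 1.04, Fgf12 at 26.7 ± 0.612, Scn8a at 25.5 ± 0.903 and Scn4b at 23.5 ± 1.68 CPM per kb. Neighbours in this run of 4 genes overlapped between libraries. Fgf14 was lower, at 17.8 ± 1.06 CPM per kb, then Fgf13 at 7.83 ± 0.329. Scn3b, at 0.848 ± 0.0851 CPM per kb, and Scn3a, the alpha subunit best known from the embryonic brain, at 0.338 ± 0.034, did not overlap with any other member or with each other. Of genes outside the 9, Scn2a1, the symbol the table uses for Scn2a, lay between Scn2b and Scn1a at 40.3 ± 2.91 CPM per kb. Fgf11, of the intracellular family, also had a mean between these members, at 29.1 ± 1.31, and its libraries overlapped with those of Scn1a.

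**Figure D1:**
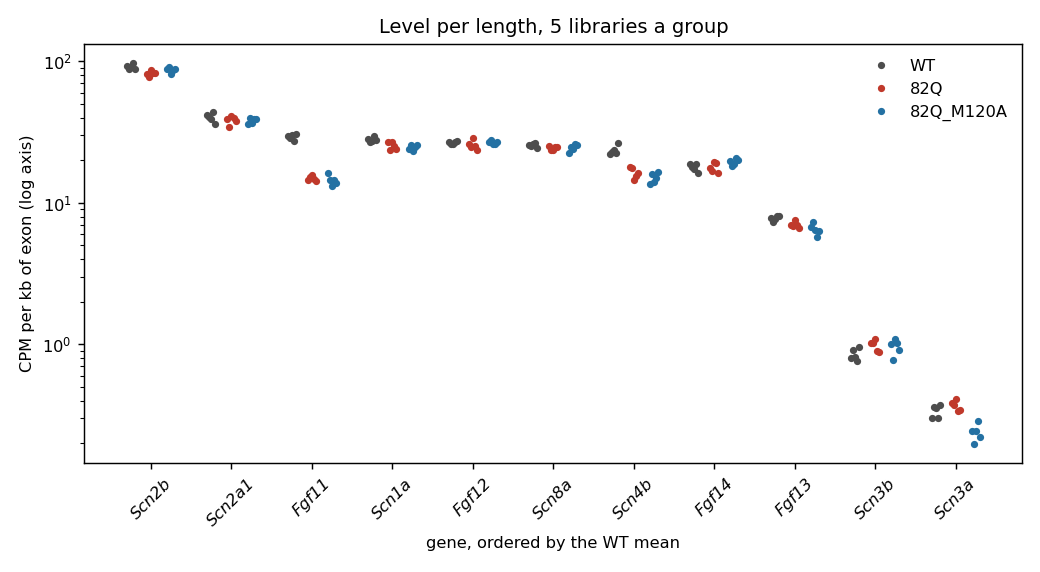
Level per length (CPM per kb of exon, log axis) of the 9 members and of Scn2a1 and Fgf11, with a point for each of 5 libraries a group. Genes are ordered by the WT mean, from Scn2b at 91.2 to Scn3a at 0.338 CPM per kb, and Scn4b and Fgf11 show the clearest gap between WT and both 82Q groups.

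In 82Q against WT 4 of 9 members fell, 0 rose and 5 were not called, beside 18.7% of all tested genes called in this comparison, 10.1% lower and 8.63% higher. With an unadjusted p under 0.05 in edgeR 1 member, Scn3b, was higher and 4 were lower. DESeq2 and limma-voom each called 4 lower and 0 higher. The shares of all tested genes called, here and below, are for edgeR at an adjusted p under 0.05 and not for these other counts. Scn4b fell 1.43-fold, and Scn1a, Scn2b and Fgf13 fell by 1.11-fold, 1.11-fold and 1.12-fold. The median log2 fold change over the 9 members was -0.07, beside 0.01 over all tested genes. Groups did not overlap for 3 members, beside 16.6% of all tested genes. With library size as the only scaling Scn4b was the only member called; the median of all tested genes was then 0.06, and 73.0% of all calls were higher in place of 46.2%.

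Scn4b, at chr9:45138395-45154152 (mm10, ENSMUSG00000046480), changed most of the 3 beta subunits among the members. Its level was 110, 114, 118, 112 and 131 CPM in the 5 WT libraries and 89.8, 87.7, 72.4, 77.1 and 80.5 CPM in the 5 82Q libraries. Every 82Q library lay below every WT library. The log2 fold change was -0.52 ± 0.07 (SE), a 1.43-fold lower level (95% interval of the log2 fold change -0.66 to -0.38, adjusted p = 2.57e-05, edgeR quasi-likelihood). In 82Q_M120A the libraries were at 67.4, 79.5, 69.8, 74.6 and 81.9 CPM, again with no overlap with WT. Against WT this was a log2 fold change of -0.65 ± 0.07, or 1.56-fold lower (adjusted p = 1.21e-06 by edgeR). The 2 groups with the 82Q allele overlapped, and 82Q_M120A against 82Q was not called (-0.13 ± 0.07, interval -0.27 to 0.01, adjusted p = 0.206). Both values against WT share the WT libraries. The median log2 fold change of the 10 Purkinje cell markers was -1.23 in 82Q and -1.11 in 82Q_M120A against WT, and the part of those cells in the fall of Scn4b was not tested.

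Scn2b lies next to Scn4b on chromosome 9, on the same strand, with 8324 bases between the annotated genes (Scn2b at chr9:45117782-45130070). Its 5 WT libraries were at 430, 408, 425, 451 and 407 CPM and its 82Q libraries at 376, 358, 404, 382 and 386. The highest 82Q library was just below the lowest WT library. The log2 fold change was -0.15 ± 0.04, 1.11-fold lower (adjusted p = 0.0117 by edgeR), and not called with library size as the only scaling (adjusted p = 0.0548). In 82Q_M120A Scn2b was at 407, 425, 380, 400 and 411 CPM, which overlapped with both other groups. It was not called there against WT (-0.07 ± 0.04, interval -0.15 to 0.02, adjusted p = 0.195) or against 82Q (0.09 ± 0.04, adjusted p = 0.159). Scn3b, with a mean of 4.63 ± 0.465 CPM for WT, 5.39 ± 0.522 for 82Q and 5.26 ± 0.673 for 82Q_M120A, was called nowhere (adjusted p = 0.125, 0.136 and 0.856 for 82Q against WT, 82Q_M120A against WT and 82Q_M120A against 82Q). Its log2 fold change in 82Q against WT was 0.22 ± 0.10 (interval 0.02 to 0.43, unadjusted p = 0.034 by edgeR). In 82Q_M120A it was 0.19 ± 0.10 against WT (interval -0.01 to 0.39) and -0.03 ± 0.10 against 82Q. Without 82Q_M120A-2 the value of Scn3b in 82Q_M120A against WT passed (0.26, adjusted p = 0.0349). Its levels rest on 1549 counts in WT, 2228 in 82Q and 2344 in 82Q_M120A.

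**Figure D2:**
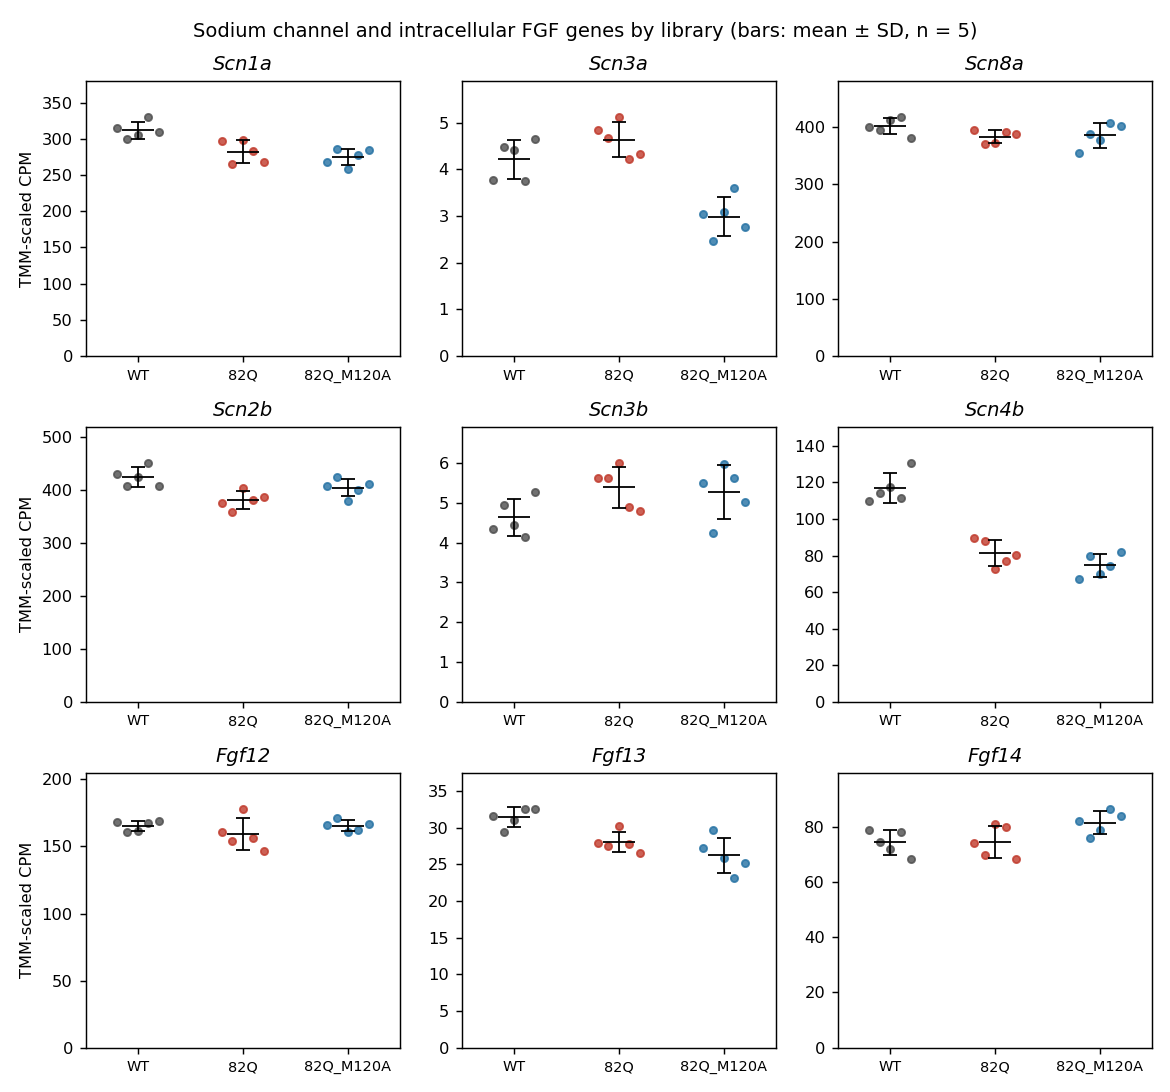
TMM-scaled CPM of the 9 members in each library, with mean and SD of 5 libraries a group and axes from 0. Scn4b is lower in every library of both 82Q groups than in WT, Scn3a is lower in 82Q_M120A alone, and all 3 groups overlap for Scn8a, Scn3b, Fgf12, Fgf13 and Fgf14.

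Among the alpha subunits Scn1a, which encodes Nav1.1 and is the channel of many fast-spiking inhibitory neurons as well as Purkinje cells, was lower in both 82Q groups. Scn1a (chr2:66270778-66440840) was at 315, 300, 305, 330 and 309 CPM in WT and at 297, 265, 298, 283 and 268 CPM in 82Q. The groups did not overlap, though the gap between them was narrow. Scn1a fell by 0.14 ± 0.04 on the log2 scale, 1.11-fold (adjusted p = 0.0185 by edgeR). The call was lost without WT-4 (adjusted p = 0.0507), without 82Q-5 (0.056) and with library size as the only scaling (0.0764). In 82Q_M120A it was at 268, 285, 259, 278 and 284 CPM, all below WT, with a log2 fold change of -0.18 ± 0.04 (interval -0.27 to -0.10, adjusted p = 0.00194). Against 82Q the value was -0.04 ± 0.04 (interval -0.12 to 0.05, adjusted p = 0.567).

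Scn8a, which encodes Nav1.6 (chr15:100869858-101045938), kept overlapping levels in all groups. Its mean was 401 ± 14.2 CPM for WT, 383 ± 11.6 for 82Q and 385 ± 21.2 for 82Q_M120A (SD, n = 5). Its log2 fold change was -0.07 in 82Q against WT (interval -0.15 to 0.02, adjusted p = 0.277) and -0.06 in 82Q_M120A against WT (interval -0.14 to 0.03, adjusted p = 0.27, edgeR quasi-likelihood). A miss of the threshold does not show equal levels. With the choroid plexus level as a term of the fit, the value in 82Q_M120A against WT was -0.11 with an adjusted p of 0.0399, and with library size as the only scaling it was -0.01 (adjusted p = 0.849).

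Scn3a, which encodes Nav1.3 (chr2:65457118-65567627), was the 1 member called in 82Q_M120A against 82Q. WT libraries were at 3.76, 4.48, 4.4, 3.75 and 4.65 CPM, 82Q libraries at 4.83, 4.68, 5.12, 4.23 and 4.32, and 82Q_M120A libraries at 3.03, 2.46, 3.07, 3.6 and 2.76 CPM. The 82Q_M120A libraries lay below all others, while WT and 82Q overlapped. Against 82Q the log2 fold change was -0.64 ± 0.10, 1.55-fold lower (interval -0.84 to -0.43, adjusted p = 0.000185 by edgeR), and against WT it was -0.49 ± 0.10, 1.41-fold lower (adjusted p = 0.000803). In 82Q against WT Scn3a was not called (0.14 ± 0.10, adjusted p = 0.352). The level is low, with 1415 counts in WT, 1915 in 82Q and 1317 in 82Q_M120A over 5 libraries. In 82Q_M120A against 82Q 3 of 10 Purkinje cell markers and 3 of 8 granule cell markers rose, and 2 of 6 interneuron markers fell. Beside these counts stand 18.9% of all tested genes called (10.3% higher, 8.63% lower), and the markers' part in the value of Scn3a was not tested. Strain and age separate 82Q_M120A from the other groups along with the kinase allele, and their parts in this fall cannot be told apart.

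Over the 9 members, 4 fell and 0 rose in 82Q_M120A against WT, beside 36.4% of all tested genes called (17.8% lower, 18.6% higher). In 82Q_M120A against 82Q 1 fell and 0 rose, beside 18.9% (8.63% lower, 10.3% higher). With an unadjusted p under 0.05 in edgeR 1 member was higher in each of these comparisons, while DESeq2 and limma-voom called 0 members higher. The median log2 fold change of the 9 was -0.07 against WT and -0.03 against 82Q, beside 0.01 and -0.00 over all tested genes. With library size as the only scaling 68.8% of all calls against WT were higher in place of 51.1%. Groups did not overlap for 3 members in the first of these, beside 25.3% of all tested genes, and for 1 in the second, beside 12.1%. Scn1a, Scn4b and Fgf13 were lower in both groups against WT, comparisons that share the WT libraries. The 4 members not called in any comparison were Scn8a, Scn3b, Fgf12 and Fgf14.

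**Figure D3:**
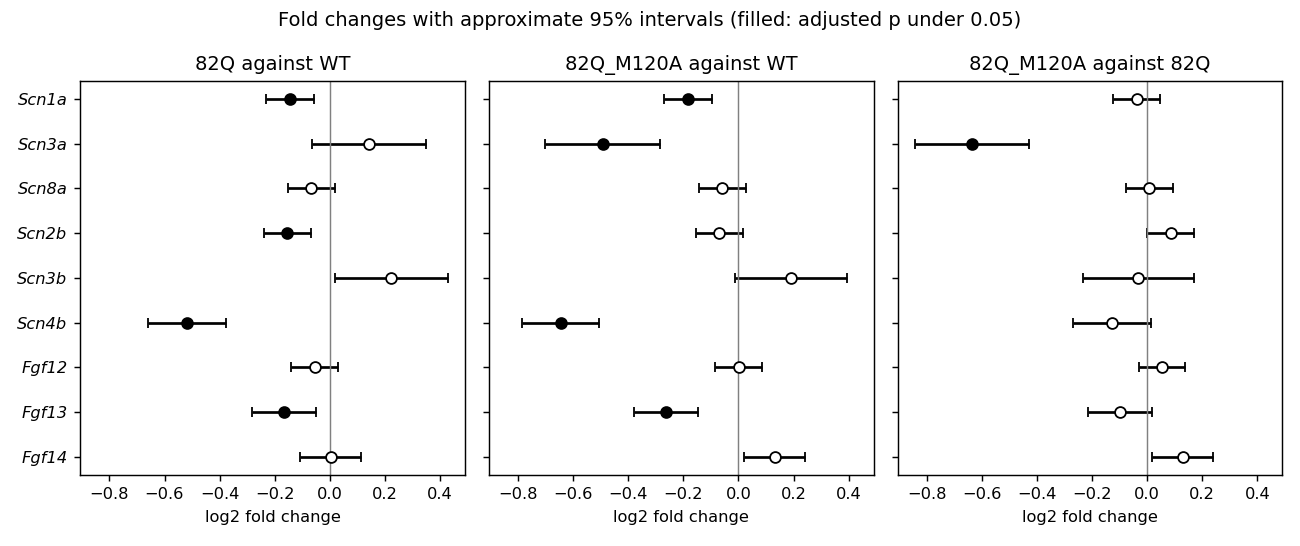
Log2 fold changes of the 9 members in the 3 comparisons, with approximate 95% intervals from the edgeR fit of 15 libraries and filled points for calls. Scn4b lies near -0.52 and -0.65 against WT, and Scn3a at -0.64 is the only filled point in 82Q_M120A against 82Q.

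Of the intracellular fibroblast growth factors, Fgf13 was lower in both 82Q groups and Fgf12 and Fgf14 were not called. Fgf13, which lies on the X chromosome (chrX:59062145-59568071) and binds sodium channels and microtubules, was at 31.6, 29.4, 31.1, 32.6 and 32.6 CPM in WT. In 82Q it was at 28, 27.6, 30.3, 27.8 and 26.6 CPM, and 1 of these libraries reached the WT range. Fgf13 fell by 0.17 ± 0.06 on the log2 scale, 1.12-fold, with an adjusted p of 0.0448 (edgeR), close to the threshold. In 82Q_M120A the libraries were at 27.2, 29.6, 25.9, 23.2 and 25.2 CPM, with a log2 fold change against WT of -0.26 ± 0.06, 1.2-fold lower (adjusted p = 0.00121), and 1 library within the WT range. Values against WT with the Y-linked level of each library as a term were -0.19 in 82Q (adjusted p = 0.04) and -0.27 in 82Q_M120A (adjusted p = 0.00115). The call in 82Q was lost with library size as the only scaling (adjusted p = 0.133), with no low-count filter (0.0585), and on leaving out any of 10 libraries: WT-1, WT-3, WT-4, WT-5, 82Q-1, 82Q-2, 82Q-4, 82Q-5, 82Q_M120A-3 or 82Q_M120A-5. Over the 15 fits without a library, adjusted p ran from 0.0227 to 0.107.

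Fgf14 (chr14:123977907-124677127), the ataxia gene of this family, was at 78.9, 74.6, 72, 78.2 and 68.2 CPM in WT, 74, 69.8, 81.1, 79.9 and 68.2 in 82Q, and 82.2, 76.2, 79, 86.7 and 83.8 in 82Q_M120A. All 3 groups overlapped, and WT and 82Q covered nearly the same range. The log2 fold change in 82Q against WT was 0.00 ± 0.05, with an interval of -0.11 to 0.11 (adjusted p = 0.981, edgeR quasi-likelihood). In 82Q_M120A it was 0.13 ± 0.05 against WT and 0.13 ± 0.05 against 82Q, just short of the threshold in the first case and not called in the second (adjusted p = 0.0579 and 0.0961). The value against WT passed with library size as the only scaling (0.18, adjusted p = 0.0101), with genes of at least 1 CPM or those groups alone (0.0466 and 0.0366), and without WT-1, 82Q-3, 82Q-5 or 82Q_M120A-2 (0.0447, 0.0443, 0.0465 and 0.035). With the choroid plexus level as a term it was 0.0832 (adjusted p = 0.302). That against 82Q passed without 82Q-3 (0.16, adjusted p = 0.0436). An antisense transcript, Gm28932, covers 5.26% of the exon bases of Fgf14, and since no strand setting is given, reads of that stretch cannot be told apart. Fgf12 (chr16:28160098-28753068), a partner of neuronal and cardiac channels, had a mean of 165 ± 3.79 CPM for WT, 159 ± 11.8 for 82Q and 165 ± 4.18 for 82Q_M120A. Its log2 fold change was -0.05 (interval -0.14 to 0.03) in 82Q and 0.00 (interval -0.08 to 0.09) in 82Q_M120A against WT, with adjusted p of 0.402 and 0.998. Without 82Q-3 the value of Fgf12 passed in 82Q against WT (-0.10, adjusted p = 0.0317) and in 82Q_M120A against 82Q (0.10, adjusted p = 0.034).

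The sequence upstream of the members was searched for letters bound by factors linked to Atxn1 or to cAMP signalling: TGAATGAA and TGAATGGA for the repressor CIC, TGACGTCA and its short form TGACG, which lies within it, for the cAMP response element, and AGGTCA for nuclear receptors such as RORA. Both strands of the 250 bases before each RefSeq start (GRCm38.p6) were read, and 7 of 9 members had an entry. A match to TGAATGAA was present in 1.08% of 32817 such windows, to TGAATGGA in 1.01%, to TGACGTCA in 1.55%, to TGACG in 17.7% and to AGGTCA in 14%. Annotated exons covered all 250 bases of the Fgf14 window, 229 of the Scn4b window, 211 of the Scn1a window and 94 of the Scn2b window. They also covered 202 and 171 bases of Fgf12 windows and 227 and 76 of Fgf13 windows. For Fgf14, Scn4b and Scn1a a lack of matches thus describes mostly exon sequence. Of the 7 members with an entry 2 held a match, Scn8a in 1 of 2 windows and Fgf12 in 1 of 4, and neither gene was called. These 2 windows are shown with the matches in capitals, followed by the part of the Scn2b window that lies outside annotated exons, since Scn2b fell in 82Q and its window held no match. The first is the Scn8a window at chr15:100936021-100936270 on the plus strand, with AGGTCA and TGAATGGA. The next is the Fgf12 window at chr16:28564952-28565201 on the minus strand, with AGGTCA read from the opposite strand and TGACG. Both windows lie inside the annotated gene and outside its exons, before internal starts. The last is 156 bases at chr9:45117626-45117781 on the plus strand.
Scn8a: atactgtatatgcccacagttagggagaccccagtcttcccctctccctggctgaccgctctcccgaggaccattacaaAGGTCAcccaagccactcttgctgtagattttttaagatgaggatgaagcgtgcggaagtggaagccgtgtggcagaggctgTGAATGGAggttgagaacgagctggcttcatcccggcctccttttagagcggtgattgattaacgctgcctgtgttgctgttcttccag
Fgf12: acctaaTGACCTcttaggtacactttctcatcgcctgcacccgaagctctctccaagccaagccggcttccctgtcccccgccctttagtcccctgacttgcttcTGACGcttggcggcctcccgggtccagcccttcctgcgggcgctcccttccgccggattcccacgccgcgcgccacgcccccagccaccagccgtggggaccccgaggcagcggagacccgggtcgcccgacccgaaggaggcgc
Scn2b: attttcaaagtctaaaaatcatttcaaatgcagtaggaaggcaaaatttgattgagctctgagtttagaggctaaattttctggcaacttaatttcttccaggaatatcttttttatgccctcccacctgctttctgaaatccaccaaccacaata
A match is a description of letters and no evidence of binding, and these windows were not tested against expression.

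Ratios between members within a library do not depend on the scaling between libraries, and 4 of them were compared in the 3 pairs of groups, which gives 12 two-sided exact permutation tests (5 libraries against 5, smallest possible p = 0.00794). Counts of Scn4b per count of its neighbour Scn2b were 0.276 ± 0.0287 in WT, 0.215 ± 0.0272 in 82Q and 0.184 ± 0.0122 in 82Q_M120A (SD, n = 5). Neither 82Q group overlapped with WT. On the log2 scale the difference from WT was -0.37 in 82Q and -0.58 in 82Q_M120A, each with exact permutation p = 0.00794 (0.0317 adjusted over the 12 tests). The 2 groups with the 82Q allele overlapped in this ratio (difference -0.21, exact permutation p = 0.0714, adjusted 0.107). Adjusted p moved above 0.05 for 82Q without WT-2, WT-3 or WT-5 (0.0635, 0.0571 and 0.0635) and for 82Q_M120A without WT-5 (0.0635). The groups still did not overlap in these tests. With 4 libraries against 5 the smallest possible p is again 0.00794, and p moves in coarse steps. Between the 82Q groups the difference passed without 82Q-3 (-0.28, adjusted p = 0.0317).

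Fgf13 per count of Fgf14 was 0.425 ± 0.0335 in WT, 0.377 ± 0.0182 in 82Q and 0.323 ± 0.0449 in 82Q_M120A. The log2 ratio differed from WT by -0.17 in 82Q, where the ranges of the groups just met (exact permutation p = 0.0159, adjusted 0.0381), and by -0.40 in 82Q_M120A without overlap (exact permutation p = 0.00794, adjusted 0.0317). Between the 82Q groups the difference of -0.23 did not pass after adjustment (exact permutation p = 0.0317, adjusted 0.0635), though it did without 82Q_M120A-2 (-0.30, adjusted p = 0.019). The value of 82Q was lost without WT-5, 82Q-1, 82Q-3, 82Q-4 or 82Q-5 (adjusted p 0.0635 to 0.0952), and that of 82Q_M120A without WT-2 or WT-5 (0.0635). Without WT-2 the difference in 82Q_M120A was -0.43 and thus no smaller, as exact p moves in coarse steps with few arrangements. Scn1a per count of Scn8a was 0.778 ± 0.0274 in WT and 0.714 ± 0.032 in 82Q_M120A, a log2 difference of -0.12 (exact permutation p = 0.0159, adjusted 0.0381) that was lost without any of 8 libraries, namely WT-1, WT-2, WT-4, WT-5 or 82Q_M120A-2 to 82Q_M120A-5 (adjusted p 0.0544 to 0.0762). In 82Q it was 0.737 ± 0.043, a difference from WT of -0.08 (exact permutation p = 0.111, adjusted 0.148). None of the 3 comparisons of Fgf12 per count of Fgf14 passed after adjustment, with the largest difference -0.13 in 82Q_M120A against WT (exact permutation p = 0.0476, adjusted 0.0816). Without 82Q_M120A-2 that difference was -0.17 (adjusted p = 0.019).

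**Figure D4:**
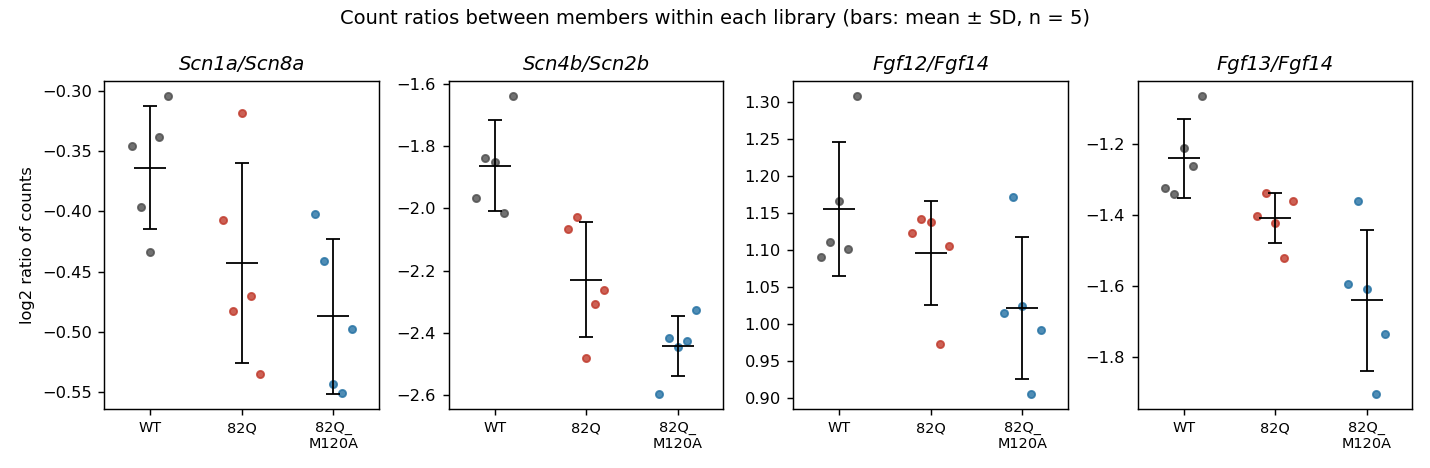
Log2 ratio of counts between pairs of members within each library, with mean and SD of 5 libraries a group; the axes differ and do not start at 0. Scn4b per Scn2b and Fgf13 per Fgf14 are lower in 82Q_M120A than in every WT library, while Fgf12 per Fgf14 overlaps between all groups.

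Among other sodium channel genes and the rest of the intracellular family, Fgf11 had larger fold changes against WT than any of the 9 members. Of 9 listed symbols 8 were in the table and 6 were tested. By edgeR 1 rose and 1 fell in 82Q and as many in 82Q_M120A against WT, beside 18.7% and 36.4% of all tested genes called. The median log2 fold change over the 6 was 0.09 and -0.15. In 82Q against WT DESeq2 and limma-voom each called 2 higher and 1 lower. In 82Q_M120A against WT DESeq2 called 1 higher and 2 lower, and limma-voom 1 higher and 1 lower. Fgf11 (chr11:69796068-69801857), the remaining gene of the intracellular family, fell from 88.6 ± 3.98 CPM in WT to 45.2 ± 1.96 in 82Q and 43.8 ± 3.63 in 82Q_M120A (SD, n = 5). Its libraries ranged over 82.5 to 92.4 CPM in WT and 39.7 to 49.4 CPM over both other groups, far from any overlap. The log2 fold change was -0.97 ± 0.05 in 82Q (1.96-fold lower, adjusted p = 1.33e-10 by edgeR) and -1.02 ± 0.05 in 82Q_M120A (adjusted p = 6.29e-11), and 82Q_M120A against 82Q was not called (adjusted p = 0.552). Nalcn, which encodes the sodium leak channel, rose in 82Q from 129 ± 3.33 to 139 ± 4.55 CPM (0.11 ± 0.03, adjusted p = 0.0155).

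Scn2a1, the gene of Nav1.2 and a major channel of granule cell axons, had a mean of 513 ± 37 CPM for WT, 490 ± 33.2 for 82Q and 483 ± 21.3 for 82Q_M120A and was called nowhere (adjusted p = 0.457, 0.235 and 0.842 for 82Q against WT, 82Q_M120A against WT and 82Q_M120A against 82Q). In 82Q_M120A against 82Q 1 gene of this list rose and 2 fell, beside 18.9% of all tested genes called. Scn7a, a sodium-sensing relative of the channels, fell from 1.98 ± 0.366 to 1.02 ± 0.355 CPM (-0.94 ± 0.22, adjusted p = 0.00608). WT lay between them at 1.30 ± 0.301 CPM, and its libraries (0.863 to 1.59 CPM) did not overlap with those of 82Q (1.61 to 2.54 CPM). Neither group was called against WT by edgeR (0.61 in 82Q, adjusted p = 0.0625, and -0.33 in 82Q_M120A, 0.278). Scn9a, the gene of Nav1.7, fell from 5.43 ± 0.363 to 4.44 ± 0.291 CPM (-0.29 ± 0.09, adjusted p = 0.0307), with 1.41% of its exon bases shared with an antisense gene. Its WT level was 5.20 ± 0.771 CPM, and edgeR did not call it against WT either (adjusted p = 0.666 in 82Q and 0.0627 in 82Q_M120A). Scn11a, a channel known from sensory neurons, was higher at a very low level, with 184 counts in 82Q_M120A, 66 in 82Q and 48 in WT over 5 libraries (1.59 ± 0.33 against WT, adjusted p = 0.00114, and 1.38 ± 0.31 against 82Q, adjusted p = 0.00509). Scn4a and Scn10a, with at most 21 counts in any group, were not tested.

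Partners of the channels at the axon initial segment and node of Ranvier were read as a further list. Of 16 listed genes, all tested, 4 fell and 2 rose in 82Q against WT (18.7% of all tested genes called), 1 fell and 4 rose in 82Q_M120A against WT (36.4%), and 0 were called in 82Q_M120A against 82Q (18.9%). In that last comparison 4 were higher and 1 lower with an unadjusted p under 0.05 in edgeR, DESeq2 called 1 higher and 1 lower, and limma-voom called 0. The list's median log2 fold change was -0.02, -0.00 and 0.05 in these comparisons. The potassium channel gene Kcnq3 rose from 8.18 ± 0.64 to 11.6 ± 0.933 CPM in 82Q (0.50 ± 0.08, adjusted p = 0.000138, edgeR quasi-likelihood) and to 12.6 ± 1.38 in 82Q_M120A. The adhesion gene Cntn1 rose by 0.14 log2 units in 82Q (adjusted p = 0.00549). Ank2, an ankyrin of the axon shaft, fell by 0.18 (adjusted p = 0.00492), Trim46, which organizes microtubules of the initial segment, by 0.20 (0.00974), the spectrin gene Sptbn4 by 0.16 (0.0274) and Sptan1 by 0.14 (0.0313). Ank3, whose product ankyrin-G anchors the channels, was not called in 82Q (0.04 ± 0.04, adjusted p = 0.51) and rose in 82Q_M120A against WT by 0.13 ± 0.04 (adjusted p = 0.0135). Ank2 was lower in 82Q_M120A as well (-0.13, adjusted p = 0.0188). Also higher in 82Q_M120A against WT were Cntnap1 (0.14, adjusted p = 0.0275) and Cntnap2 (0.18, adjusted p = 0.0075), both of which encode proteins flanking the node.

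**Figure D5:**
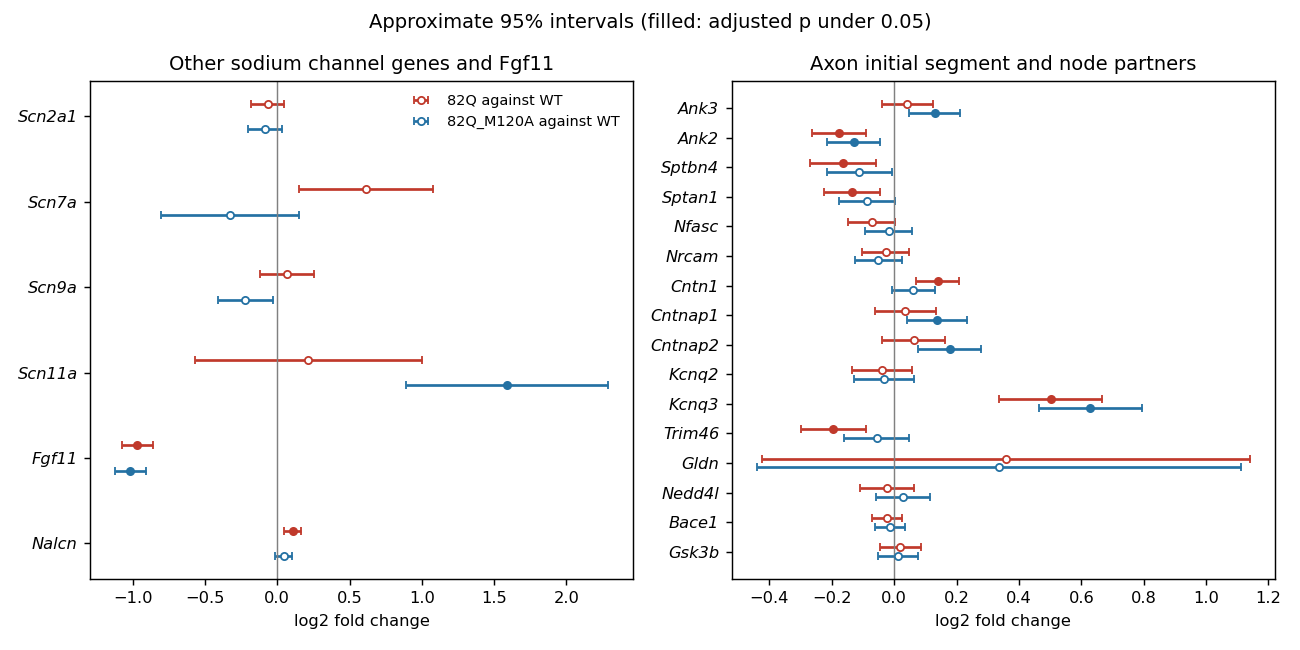
Log2 fold changes against WT of 5 other tested sodium channel genes and Fgf11 (left) and of the initial segment and node partners (right), with approximate 95% intervals and filled points for calls. Fgf11 lies near -1 in both 82Q groups, and Kcnq3 lies at 0.50 in 82Q and 0.63 in 82Q_M120A.

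Markers of other cell types were read beside the members, with 18.7% of all tested genes called in 82Q and 36.4% in 82Q_M120A against WT. Of 8 granule cell markers 1 rose in 82Q against WT, and 4 rose and 1 fell in 82Q_M120A against WT; their summed level was 5141 to 5841 CPM in WT, 5167 to 5750 in 82Q and 5656 to 6298 in 82Q_M120A. Of 6 interneuron markers 2 rose in 82Q, and 3 rose and 2 fell in 82Q_M120A against WT (465 to 548 CPM summed in WT, 501 to 544 in 82Q, 415 to 525 in 82Q_M120A). Oligodendrocyte markers rose in 4 of 5 cases in 82Q and 5 of 5 in 82Q_M120A against WT (4532 to 5504 CPM summed in WT, 5613 to 6831 in 82Q, 6282 to 6887 in 82Q_M120A). Of 4 microglia markers 4 rose, of 5 astrocyte and Bergmann glia markers 2 rose and 1 fell, and of 3 oligodendrocyte precursor markers 1 rose in 82Q; in 82Q_M120A against WT 3 microglia and 2 precursor markers rose, and astrocyte markers again gave 2 higher and 1 lower. None of 5 choroid plexus markers was called in 82Q by edgeR, DESeq2 or limma-voom, nor of 3 endothelial markers, of which 1 was lower with an unadjusted p under 0.05 in edgeR; of the choroid plexus markers 0 were. Of 6 brainstem and cerebellar nucleus markers 4 were tested, and edgeR called 0 in 82Q against WT (1 higher with an unadjusted p under 0.05, 1 by DESeq2, 0 by limma-voom). In 82Q_M120A against WT each of these tools called 1 higher. Summed, these 6 were at 15.8 to 27.2 CPM in WT, 21.4 to 35.3 in 82Q and 20.5 to 30.7 in 82Q_M120A, and 2 of them were at 0 in some library. No marker of the other lists named here was at 0 in any library except the Y-linked genes, and their part in the values of the members was not tested.

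Within groups, members varied from library to library in like and in opposite directions. Over the 15 libraries, with group means taken out, Pearson's r of log2 CPM over the 36 pairs of members ran from -0.60 for Scn2b with Scn3b to 0.86 for Scn3a with Scn3b. These are descriptions across libraries that share depth and scaling. Scn1a and Scn2b had a within-group r of 0.74, and Scn4b had 0.07 with Scn1a and -0.30 with Scn2b.

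Genes with the pattern most like a member were taken from 14013 others with a mean of at least 1 CPM, by Pearson's r of log2 CPM over 15 libraries. Among the genes most like Scn4b were Them6 (r = 0.97) and Csdc2 (0.97), with 0.82 and 0.75 once group means were taken out. Fgf13 was most like Chmp2a (0.97), Mrpl20 (0.96) and Ndufa4 (0.95), with within-group values of 0.94, 0.90 and 0.91. Scn1a was most like Snap25 (0.97, within groups 0.93), then Arel1 (0.94) and Mapre2 (0.94). Scn2b was most like Amica1 (0.90, within groups 0.80), which RefSeq lists as Jaml 9344 bases away from it on chromosome 9, then Spcs3 (0.87) and Kitl (0.86). Amica1 was at 5.06 ± 0.346 CPM in WT and 3.66 ± 0.179 in 82Q (-0.46, adjusted p = 0.000213, edgeR quasi-likelihood), and at 4.16 ± 0.381 in 82Q_M120A (-0.28 against WT, adjusted p = 0.00672).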

How the data were processed

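Total RNA from dissected cerebella was made into TruSeq libraries, per the labels' protocols. The authors deposited whole-number counts per gene symbol for 15 libraries; the tools listed, per the submitters' processing notes, include HISAT2 2.0.1, Subread and featureCounts, build mm10, and further DESeq2 1.14.1, R 3.3.3 and CASAVA 1.8. The sources used here give no annotation, strand setting or rule for multiply mapping reads. Column names carry a number of their own but no replicate number that matches the sample titles, so a library's number here is its place among the columns of its group.

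Counts of all 15 libraries were fitted with edgeR 4.0.16 (limma 3.58.1, R 4.3.3; TMM, filterByExpr, robust glmQLFit), a term for each group and no covariate. Tests were two-sided, with Benjamini-Hochberg adjustment over 16808 genes. Replicates differed beyond counting error (chi-square per degree of freedom 6.98 to 71.6 over 30 pairs). The fit was tested on simulated data. Coordinates and exon lengths come from GENCODE M21, promoters from RefSeq GRCm38.p6.

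Members, lists and tests were chosen with earlier results of these data known, so they are no independent support. The lists are the 9 members, 9 other sodium channel symbols, 16 initial segment and node partners, and cell type markers. Named were all members, each measured gene of the second list, up to 6 called partners a comparison with the smallest adjusted p, and the 3 genes most like each member called in 82Q; some genes these rules name are not reported here. Amica1 is named with its values after these were seen. The alternatives were other tools (DESeq2 1.42.0 and limma-voom), other scaling (RLE factors or library size only), other filters on low counts, fits of the compared groups alone, the Y-linked or choroid plexus level as a term, and leaving out each library.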

Additional observations from a re-analysis of the deposited data

Results flagged for a closer look

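In a group of 5, a library was marked when its gap to the nearest other, over the group's range, passed Dixon's 95% value of 0.71. Of 57 groups examined 3 were marked, and chance marks about 1 in 20. Scn9a was at 6.05 CPM in 82Q-1, beside 5.13 to 5.37 in the other 82Q libraries. Nalcn was at 147 CPM in 82Q-3, beside 136 to 138. The log2 count ratio of Fgf12 to Fgf14 was 0.97 in 82Q-4, below the other 82Q libraries, of which the lowest was at 1.11. No member's own level was marked in any group.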

How the results depend on the processing

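The calls of Scn4b against WT and of Scn3a in 82Q_M120A held under every alternative run, including each fit without a library. With library size as the only scaling, 1 member was called in 82Q against WT, with Scn1a at -0.0947, Scn2b at -0.10 and Fgf13 at -0.12 no longer called, and Fgf14 passed in 82Q_M120A against WT (0.18). Fgf13 in 82Q was not called without a low-count filter (-0.16). Fgf14 in 82Q_M120A against WT passed with genes of at least 1 CPM (0.14) and in the fit of those groups alone (0.13), while the choroid plexus term lowered it to 0.0832. With that term Scn8a passed there (-0.11). Values near 0 that were never called changed sign: Fgf12 in 82Q_M120A against WT was -0.00298 with DESeq2, -0.00302 with RLE factors, -0.000129 without the filter, -0.00119 in the fit of those groups alone, -0.00823 with the Y-linked term and -0.0276 with the choroid term. Fgf14 in 82Q against WT was -0.0016 with limma-voom, -0.00233 in the fit of those groups alone and -0.0175 with the choroid term, and Scn8a in 82Q_M120A against 82Q was -0.0253 with the choroid term. The cause was not tested.

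Leaving out each library in turn, 82Q against WT gave 2 to 5 called members, Scn1a -0.17 to -0.12, Fgf13 -0.20 to -0.15, Fgf12 -0.0985 to -0.0257 and Fgf14 -0.0301 to 0.0333. The count was 2 without WT-4 or without 82Q-5. In 82Q_M120A against WT, Scn3b lay at 0.14 to 0.26, Fgf12 at -0.0153 to 0.0106 and Fgf14 at 0.10 to 0.15. In 82Q_M120A against 82Q, 1 to 3 members were called, 3 of them without 82Q-3, with Scn8a at -0.0123 to 0.0373, Scn3b at -0.0823 to 0.0326, Fgf12 at 0.0256 to 0.0973 and Fgf14 at 0.10 to 0.16. Log2 ratio differences of Scn4b to Scn2b were -0.42 to -0.30 in 82Q and -0.62 to -0.52 in 82Q_M120A against WT, and -0.28 to -0.16 between them. Those of Fgf13 to Fgf14 were -0.19 to -0.12, -0.47 to -0.33 and -0.30 to -0.17 in the same order. In 82Q_M120A against WT the difference was -0.14 to -0.11 for Scn1a to Scn8a and -0.17 to -0.10 for Fgf12 to Fgf14. Adjusted p was above 0.05 in 3 of 15 such tests for Scn4b to Scn2b and 5 of 15 for Fgf13 to Fgf14 in 82Q against WT, and in 1, 2 and 8 of 15 for Scn4b to Scn2b, Fgf13 to Fgf14 and Scn1a to Scn8a in 82Q_M120A against WT. Such tests have few arrangements, so their p moves in coarse steps, and every ratio difference kept its sign.

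No paired analysis was possible because the columns carry no replicate number that matches the sample titles. Depth limits Scn3a and Scn3b most, at 1317 to 2344 counts a group, and Scn11a, Scn4a and Scn10a are near the floor of the assay.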
